A study of Taeniopygia guttata with 21 samples.

Results

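The comparison described here sets skin from the anterior back of zebra finch embryos against skin from the saddle, the neighbouring region of the back. Its members are 6 of the 21 libraries of the series: 3 labelled dorsal anterior and 3 labelled dorsal saddle, each numbered 3, 8 and 11, chosen by label and not by any measured value. The zebra finch (Taeniopygia guttata) is a songbird with sharply bounded plumage patches, and the series was collected to find molecules restricted to presumptive colour domains. All 21 libraries came from wild-type embryos at stage HH28, male and female parents having been bred in 1 facility, and no treatment, transgene or mutation is labelled for either location. The other 15 libraries, from dorsal posterior skin and from 4 ventral locations called anterior, ventral-most, flank and posterior, enter the shared estimate of spread and are used where stated. The labels do not say how many embryos gave a library, or whether libraries of 1 number came from the same embryo.

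Position along the body axis is recorded in vertebrate embryos by the HOX genes, transcription factors that lie in clusters and are switched on in the order in which they lie, those at one end of a cluster in more anterior tissue and those at the other end towards the tail. Dermal fibroblasts keep such a HOX code, and the dermis is known from grafting work in birds to instruct the skin above it. Skin at this stage is a layer of epidermis over loose dermis in which feather fields are being laid out, with melanoblasts, the pigment cell precursors derived from the neural crest, arriving in it.

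The 6 libraries held 15.7 to 21.7 M reads, against 12.9 to 23.0 M over all 21. Levels are normalised read counts: reads scaled by the depth factor of their library, so that libraries can be compared for 1 gene but levels of genes of unlike length cannot. Summed over the defining markers that were measured, epidermis stood at 26956 to 34373 in dorsal anterior libraries and 23684 to 26627 in saddle libraries, and dermis at 141714 to 166748 and 135344 to 172651. The neural progenitor gene SOX2 and the neuron gene ELAVL3 were at 0 in all 6, but the neuron gene ELAVL4 was not, at 639, 547 and 372 in dorsal anterior libraries against 405, 383 and 246 in saddle libraries. Libraries with the same number deviated together from their location means, and the number was kept as a block in every test unless stated. Fewer cells of a type and less RNA per cell cannot be told apart in bulk tissue.

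Skin of the anterior back differed from saddle skin at 256 of 14005 tested genes (1.83%), far more often by being lower than by being higher. A gene is called here when its adjusted p was below 0.05 (limma on log2 of the value plus 1, Benjamini-Hochberg adjustment over all genes tested). In dorsal anterior skin 65 genes (0.464% of those tested) were higher and 191 (1.36%) lower, 46 of the first and 160 of the second at least 2-fold. Each of the 256 had the same sign within all 3 numbers, and for 228 the 3 anterior and 3 saddle values did not overlap. The calls were made on these same values, so both counts add no separate support. Over all tested genes the 3 anterior values were all above the saddle values at 613 (4.38%) and all below them at 828 (5.91%). The median log2 difference over all genes was 0.01, with 7352 differences positive and 6653 negative. An unadjusted p below 0.05 was found by limma at 1489 of the 14005 genes. Of the called genes 98 had no symbol and belong to no list.

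The number of calls differed between settings. Without the block it was 109, 23 of them higher, and DESeq2 gave 556, 158 of them higher. It was 59 without number 3 and 25 without number 8, and among fits lacking a single library 126 without dorsal anterior 3, 113 without dorsal anterior 8, 99 without dorsal saddle 3 and 162 without dorsal saddle 8. Of 60 called genes followed through 20 alternatives, 12 kept their call in each: OPN3, HOXA4, SYNDIG1, CACNG3, HOXA9, HOXC9, ISM1, ME3, MTMR1, RNPEP and 2 genes without a name. The 60 were mostly chosen by these same values, so their share of kept calls does not stand for all called genes. ISM1, ME3, MTMR1, RNPEP and the 2 genes without a name were chosen after their values were seen. Without number 8, 14 of the 60 stayed called, while that fit called 25 genes in all.

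**Figure D1:**
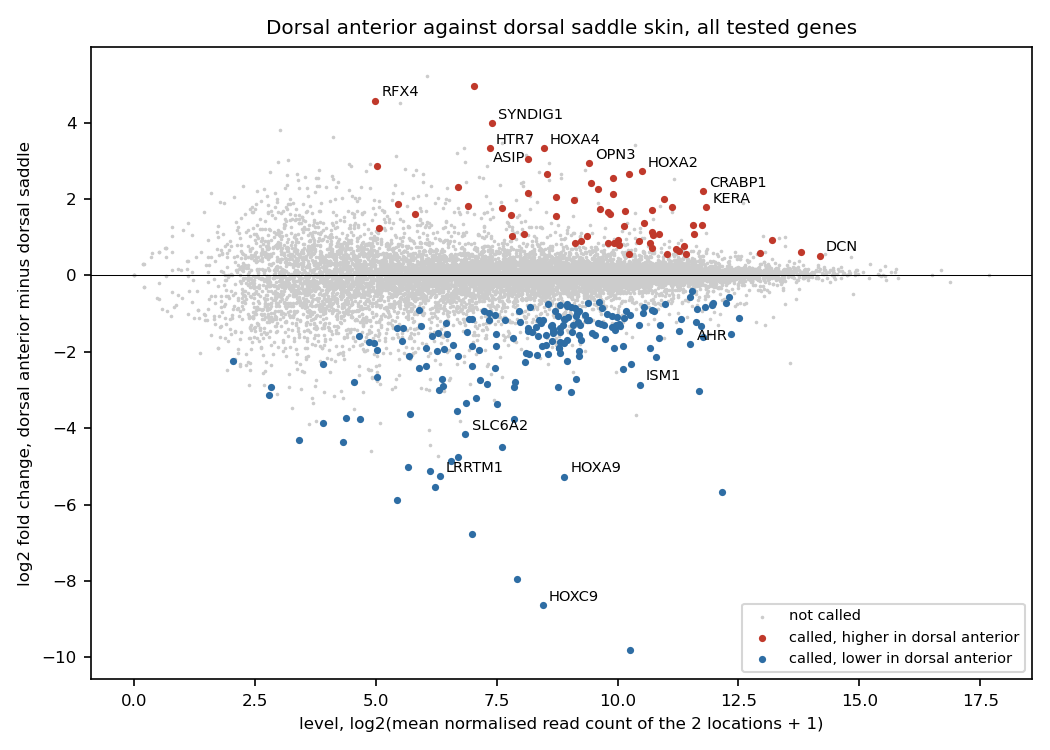
Each point is 1 of 14005 tested genes, placed by its level over both locations (horizontal axis, log2 of mean normalised read count plus 1) and by its log2 fold change, dorsal anterior minus dorsal saddle (vertical axis). Red points are the 65 called genes that were higher in dorsal anterior skin and blue points the 191 that were lower, the lowest of them past -8 on the log2 scale.

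HOX genes of the anterior end of the clusters were higher on the anterior back. Of 7 tested genes of paralog groups 1 to 5, 4 were called higher and 0 lower (57.1% called, against 1.83% over all genes). Their median log2 difference was 1.28, against 0.01 over all genes. HOXA4 (GSZG0006117, chromosome 2, 52583050 to 52584502 in the coordinates of the deposited table, whose build is not given in the sources used here) stood at 595, 1097 and 262 in dorsal anterior libraries 3, 8 and 11, and at 38.3, 84.8 and 49.0 in the saddle libraries of the same numbers. Every anterior value was above every saddle value (log2 fold change 3.33, SE 0.38, adjusted p = 0.000205). HOXA2, the most anterior HOXA gene with a name in the table, was nearly constant on the anterior back, at 2565, 2429 and 2485, against 295, 296 and 598 in the saddle (2.73, SE 0.34, adjusted p = 0.00036). HOXD4 behaved in the same way in another cluster, with 1787, 1724 and 1442 against 304, 262 and 271 (2.56, SE 0.36, adjusted p = 0.000983). The difference was smaller for HOXA3, at 2011, 2189 and 2047 against 1180, 1333 and 954 (0.86, SE 0.17, adjusted p = 0.0127). HOXD3 (1.28, adjusted p = 0.0523), HOXB3 (1.08, adjusted p = 0.74) and HOXB5 (0.26, adjusted p = 0.967) were not called. HOXD3 was called by edgeR (adjusted p = 0.0439), by DESeq2 (0.00306), with the 9 dorsal or the 6 compared libraries alone (0.0177 and 0.0352), with a pseudocount of 5, with a low-value filter of 50 and without dorsal anterior 3, so that edgeR and DESeq2 each called 5 of the 7. The calls of HOXA2 and HOXD4 ended without number 8 (log2 fold changes 2.59 and 2.48), and that of HOXA3 without any 1 number, dorsal anterior 8, dorsal saddle 3 or dorsal saddle 11 (0.74 to 0.94).

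The called HOX genes of the opposite end were low or near 0 on the anterior back and higher in the saddle. Of 7 tested genes of groups 9 to 13, 5 were called lower and 0 higher (71.4% called, against 1.83% over all genes). Their median log2 difference was -4.76. HOXC9 (GSZG0017367) had 0, 4.41 and 0 in the anterior libraries and 725, 701 and 664 in the saddle libraries (log2 fold change -8.63, SE 0.67, adjusted p = 1.24e-05). The saddle values lay within a narrow band, and the anterior ones at or near 0. HOXA9 stood at 41.2, 67.0 and 3.39 against 1182, 737 and 819 (-5.27, SE 0.62, adjusted p = 0.000288), and HOXB9 at 2.63, 2.64 and 0.846 against 137, 97.2 and 59.9 (-5.01, SE 0.69, adjusted p = 0.000732). HOXD10 varied more among saddle libraries, with 1.75, 2.64 and 12.7 against 399, 155 and 42.7 (-4.76, SE 0.92, adjusted p = 0.0125). HOXA11 was low at both locations and overlapped between them, at 4.38, 0 and 0 against 77.7, 34.5 and 3.63 (-3.74, SE 0.74, adjusted p = 0.0134). HOXB9 was not called without number 8 (-5.15), HOXD10 without number 3 or 8 or any 1 of dorsal anterior 3 and 8 and dorsal saddle 3 and 8 (-4.76 to -3.54 over these and the fit of the 6 libraries alone), and HOXA11 without number 3 or 8, dorsal anterior 8 or dorsal saddle 3 or 8 (-3.74 to -3.04 likewise).

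The HOXD genes at the posterior end were nearly absent at both locations. HOXD11 and HOXD13 had no read on the anterior back, and 17 and 20 reads in the saddle, all of them in saddle library 8. Counted over each location with a floor of 3 reads, they were at least 6.45-fold and 7.59-fold lower in dorsal anterior skin, a bound that covers counting error only and rests on 1 saddle library. Neither was called.

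Genes of the middle groups lay between. Of 5 tested in groups 6 to 8, 1 was called lower and 0 higher, against 256 of 14005 called over all genes (1.83%). All 5 differences were negative, against 6653 of 14005 over all genes, with a median of -1.12. HOXA7 was the called one, at 256, 291 and 201 in anterior libraries against 735, 651 and 554 in saddle libraries (-1.38, SE 0.28, adjusted p = 0.0144). It was not called without the block, without number 3 or 11, or without dorsal anterior 3, dorsal saddle 3 or dorsal saddle 8 (-1.45 to -1.23). HOXA6 (-0.78, adjusted p = 0.567), HOXB7 (-0.52, adjusted p = 0.778), HOXC6 (-1.12, adjusted p = 0.388) and HOXB8 (-2.54, adjusted p = 0.0638) were not called. HOXB8 was called by DESeq2 (-2.79, adjusted p = 0.0124).

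In the HOXA cluster the sign of the difference changed once along the chromosome. Between the first and the last HOXA gene the table lists 2 genes without a name, which were singled out after their values had been seen. GSZG0006118 lies between HOXA4 and HOXA6 (chromosome 2, 52596982 to 52598780) and was higher on the anterior back, with 1777, 1628 and 799 against 462, 310 and 556 (log2 fold change 1.62, SE 0.33, adjusted p = 0.0165). Its call was lost in 8 of 20 alternatives, among them the fits without the block, with the 6 compared libraries alone and without dorsal anterior 3 or 8 (1.23 to 1.62). From the neighbouring HOXA6 on, every difference was negative. GSZG0006121, between HOXA9 and HOXA11 (52629491 to 52631814), had the lowest log2 difference of all called genes: it stood at 0, 8.82 and 0 in anterior libraries and at 4257, 2271 and 752 in saddle libraries (-9.82, SE 1.11, adjusted p = 0.000221). In the HOXB cluster the signs were positive for HOXB3 and HOXB5 and negative beyond, and in the HOXD cluster positive for HOXD3 and HOXD4 and negative beyond, although most of these genes were not called.

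**Figure D2:**
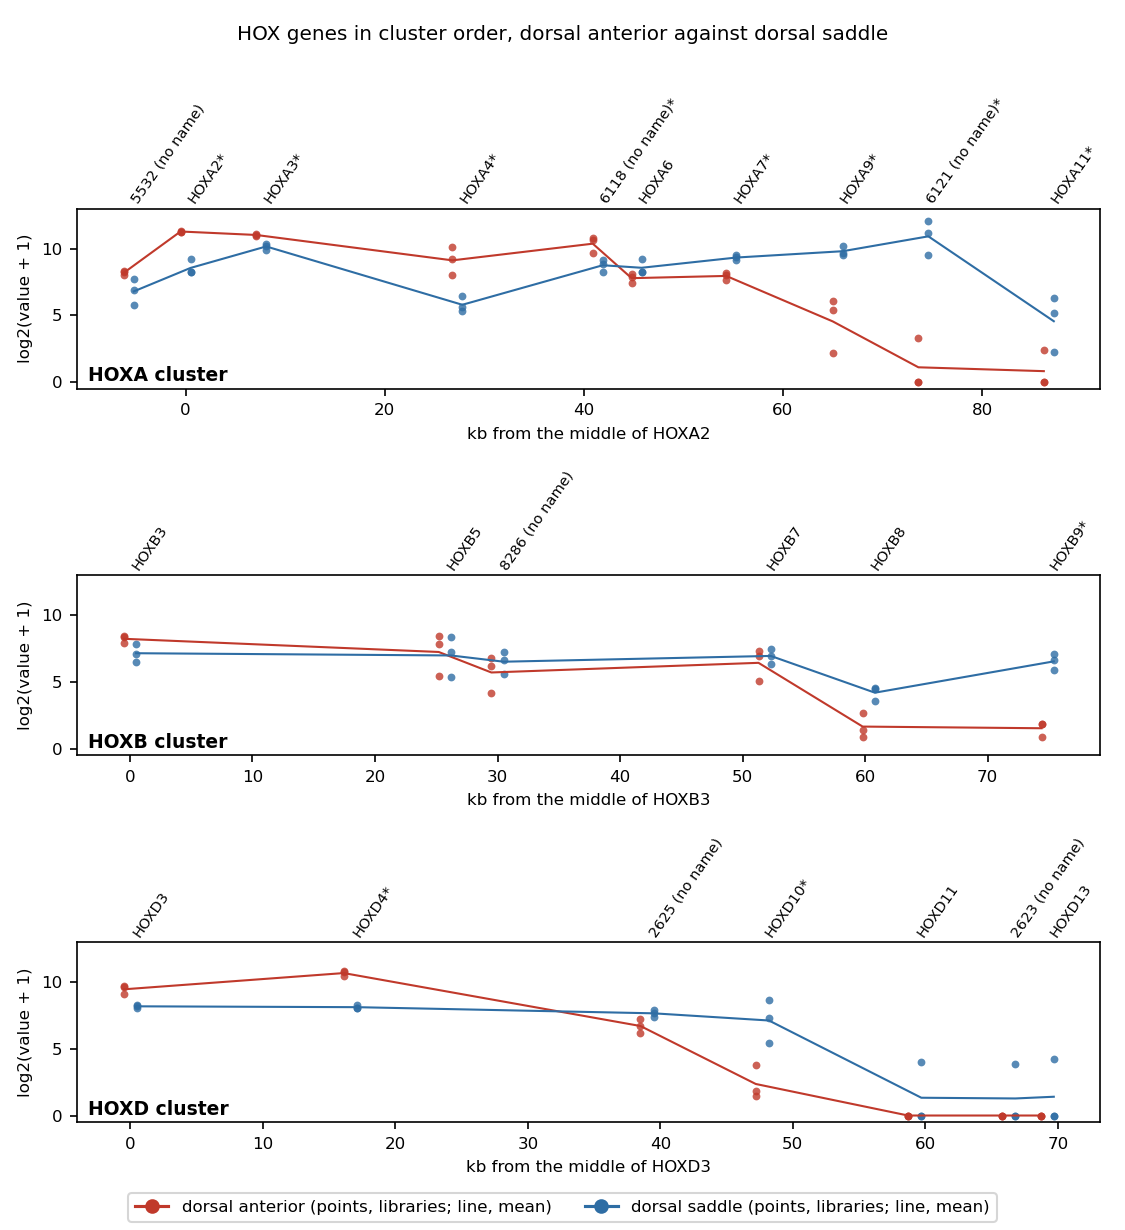
Levels of the genes of the HOXA, HOXB and HOXD clusters (vertical axis, log2 of the normalised read count plus 1) against their distance in kb from the cluster's most anterior named gene (horizontal axis), with library points and lines through the means, red for dorsal anterior and blue for dorsal saddle; asterisks mark called genes and 4 digits an unnamed gene's identifier. In each panel the red line starts above the blue line and ends below it.

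Outside the HOX clusters TBXT and ISL1 were called lower on the anterior back, and PITX1 was short of the threshold. PITX1, a homeobox gene with a known role in hindlimb identity, was lower in every anterior library, at 12.3, 5.29 and 0 against 239, 172 and 35.4, but was not called (-4.72, SE 1.18, adjusted p = 0.0531). TBXT, the T-box gene of the early mesoderm, stood at 10.5, 28.2 and 14.4 against 148, 125 and 139 (-3.00, SE 0.57, adjusted p = 0.0101). It averaged 16.2 ± 13 (SD, n = 3) in dorsal posterior skin, so that its saddle libraries were the highest of the back. The call of TBXT was not among the 60 followed through the alternatives. ISL1, a LIM homeobox gene of motor neurons and limb mesoderm, was called narrowly (-3.87, SE 0.94, adjusted p = 0.0459) on 3 anterior against 81 saddle reads, a saddle to anterior ratio of 30.7 with a 95% counting interval of 10.1 to 152, and lost its call in 16 of 20 alternatives.

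RFX4 and ZBTB18, also transcription factor genes, were called higher. RFX4, a winged-helix factor of the neural tube, stood at 14, 77.6 and 88.9 on the anterior back and at 0, 1.77 and 1.82 in the saddle (4.58, SE 1.02, adjusted p = 0.0272). Its call ended without the block, without any 1 number and without any 1 of the 6 libraries (4.34 to 4.94). ZBTB18, a zinc finger repressor, had 1057, 1104 and 1380 against 209, 173 and 289 (2.42, SE 0.30, adjusted p = 0.00036) and was not called without number 8 (2.29).

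The genes with the highest fold changes included receptors, ligands and binding proteins. SYNDIG1, which encodes a transmembrane protein known from excitatory synapses, stood at 225, 300 and 419 in dorsal anterior libraries against 6.96, 20.3 and 41.8 in saddle libraries (3.98, SE 0.46, adjusted p = 0.000205). The light-sensitive opsin gene OPN3 had 1657, 1011 and 932 against 200, 97.2 and 172 (2.95, SE 0.32, adjusted p = 0.000182), and the serotonin receptor gene HTR7 261, 430 and 201 against 19.7, 42.4 and 23.6 (3.34, SE 0.64, adjusted p = 0.0117). In all 3 genes the lowest anterior library was well above the highest saddle library. WNT5A, a ligand that mostly signals without beta-catenin and is produced by embryonic dermis, stood at 3613, 2830 and 3948 against 1094, 765 and 1130 (1.80, SE 0.22, adjusted p = 0.000322). CRABP1, a cytoplasmic retinoic acid binding protein, varied little among anterior libraries, at 6100, 5561 and 5436 against 1125, 1115 and 1476 (2.21, SE 0.40, adjusted p = 0.00817). PDGFD, a growth factor gene, had 1620, 1242 and 1856 against 434, 358 and 280 (2.14, SE 0.40, adjusted p = 0.00919). WNT5A was not called without number 8 (1.76), CRABP1 without number 3 or 8, dorsal anterior 8 or dorsal saddle 3 (2.08 to 2.16), PDGFD without the block, any 1 number or dorsal anterior 3 (1.85 to 2.31), and HTR7 without the block, number 8 or 11, dorsal anterior 3 or 8 or dorsal saddle 11 (2.95 to 3.49).

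Genes of the extracellular matrix went both ways. KERA, which encodes the small collagen-binding proteoglycan keratocan, stood at 5517, 6493 and 4808 on the anterior back against 2073, 1968 and 1022 in the saddle (1.79, SE 0.32, adjusted p = 0.00716). DCN, which encodes decorin, a proteoglycan of the same family, lies close to it on chromosome 1A; it had 22861, 23935 and 19018 against 13932, 16665 and 15176 (0.52, SE 0.11, adjusted p = 0.0199). These were the higher members of a list of 20 dermal fibroblast and matrix genes, of which 2 were called higher and 1 lower. Over all genes 256 of 14005 were called (1.83%). The median of the list was -0.08. The lower one was COL6A2, a chain of collagen VI, with 2982, 3383 and 4726 against 6815, 6582 and 10641 (-1.11, SE 0.21, adjusted p = 0.0105). The collagen gene COL1A2 overlapped between the locations, with 99565, 125814 and 112405 against 128299, 142803 and 108992 (-0.17, SE 0.17, adjusted p = 0.895). Outside the list, the elastic fibre gene FBLN5 (1.98, SE 0.47, adjusted p = 0.044), ADAMTSL3 (2.27, SE 0.51, adjusted p = 0.0292) and TGFBI (2.66, SE 0.65, adjusted p = 0.0497), whose product is a matrix protein induced by TGF-beta, were called with less margin. KERA was not called without number 3 or 8 (1.82 to 1.98), and COL6A2 without the block, any 1 number, dorsal anterior 3 or dorsal saddle 3 (-1.18 to -1.07). DCN lost its call in 10 of 20 alternatives, FBLN5 in 12, ADAMTSL3 in 11 and TGFBI in 15. ENTPD3, an ectonucleotidase gene and the last of the 14 genes with the highest fold changes, overlapped between the locations (2.15, SE 0.44, adjusted p = 0.0164). It lost its call in 8 of 20 alternatives, among them the fits without the block, with the 9 dorsal libraries alone and without dorsal anterior 3 or 8 (1.83 to 2.20).

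**Figure D3:**
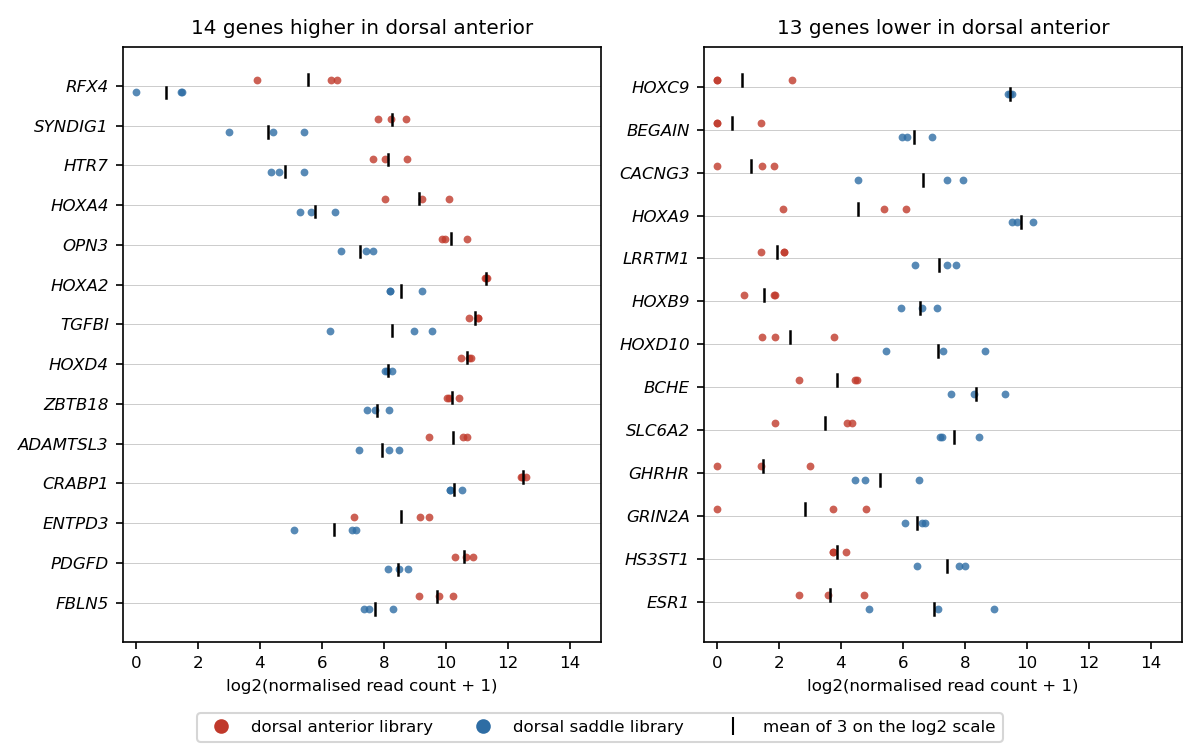
Levels of the 14 genes with the highest (left) and 13 with the lowest (right) log2 fold changes among called genes that met the naming rule, as log2 of the normalised read count plus 1, with 1 point per library (red, dorsal anterior; blue, dorsal saddle) and a bar at the mean of 3. Of the genes at left, ENTPD3 is the one whose locations overlap.

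The genes with the lowest fold changes, HOX genes apart, included several close to 0 on the anterior back. BEGAIN, which encodes a postsynaptic density protein, stood at 0, 0 and 1.69 in anterior libraries and 61.5, 123 and 69.9 in saddle libraries (-5.88, SE 1.0, adjusted p = 0.00506). With 2 anterior reads against 269, its saddle to anterior ratio was 153 with a 95% counting interval of 42.0 to 1270. CACNG3, a calcium channel and glutamate receptor subunit, had 2.63, 1.76 and 0 against 169, 247 and 22.7 (-5.54, SE 0.68, adjusted p = 0.000332), and LRRTM1, a synaptic adhesion protein, 3.50, 3.53 and 1.69 against 209, 171 and 83.5 (-5.26, SE 1.11, adjusted p = 0.0201). Each of these 3 was within a few reads of 0 on the anterior back. BCHE, the cholinesterase of serum, stood at 21, 5.29 and 22.0 against 626, 311 and 185 (-4.49, SE 0.88, adjusted p = 0.0137), and SLC6A2, the noradrenaline transporter, at 17.5, 2.64 and 19.5 against 348, 153 and 146 (-4.16, SE 0.85, adjusted p = 0.0164). Of 15 tested neuron genes 1, ISL1, was called lower and 0 higher (6.67%, against 1.83% over all genes), with a median of 0.25. The summed defining neuron markers stood at 396 to 664 in anterior libraries and 261 to 426 in saddle libraries. The oestrogen receptor gene ESR1 fell least of the 13 shown and varied widely in the saddle, with 5.25, 25.6 and 11 against 490, 140 and 29.1 (-3.34, SE 0.77, adjusted p = 0.0351). BEGAIN was not called without number 8 (-5.34), LRRTM1 without number 3 or 11 or any 1 library but dorsal saddle 11 (-5.59 to -4.75), and SLC6A2 and BCHE without number 3 or 8, dorsal anterior 8 or dorsal saddle 3 (SLC6A2 -4.12 to -3.24) and, for BCHE, also dorsal anterior 3 or dorsal saddle 8 (-4.65 to -3.83). ESR1 lost its call in 11 of 20 alternatives, GHRHR, a receptor of growth hormone releasing hormone, in 10 (-3.77, adjusted p = 0.0231), the heparan sulphate enzyme gene HS3ST1 in 10 (-3.55, adjusted p = 0.03), and the glutamate receptor gene GRIN2A in 15 (-3.62, adjusted p = 0.047).

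Abundant signalling genes were also among those lower on the anterior back. ISM1 (chosen after its values were seen), a secreted protein gene, stood at 296, 571 and 215 against 2785, 2646 and 1900 (-2.86, SE 0.32, adjusted p = 0.000182). AHR (chosen likewise), which encodes the aryl hydrocarbon receptor, had 1041, 1171 and 1707 against 5024, 4803 and 3660 (-1.80, SE 0.27, adjusted p = 0.00154). In both genes the saddle values were more than any anterior value by a wide gap. EDA, the ectodysplasin ligand needed for feather and hair placodes, stood at 63.9, 168 and 303 against 524, 363 and 775 (-1.82, SE 0.43, adjusted p = 0.0374). It was the only called gene among 19 tested feather placode and dermal condensation genes, a share of 5.26% beside 1.83% over all genes; the EDA receptor gene EDAR gave 0.44 (adjusted p = 0.713). NRP1, a receptor for semaphorins and VEGF, had 1306, 1777 and 1678 against 3076, 3476 and 3929 (-1.14, SE 0.25, adjusted p = 0.0273) and was the only called one of 27 guidance and cell contact genes (3.7%). AHR was not called without number 3 or 8 (-1.68 to -1.57), while EDA lost its call in 12 alternatives, edgeR among them, and NRP1 in 9.

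A feature of the anterior back was the number of genes that were lowest there among all 7 locations. For 160 genes (1.14% of those tested) all 3 dorsal anterior libraries lay below all 18 others, and 86 of these were among the 191 called lower. The same count was 34 for the saddle, 29 for dorsal posterior skin and 21 to 66 for the 4 ventral locations. In the opposite direction 96 genes (0.685%) had all 3 dorsal anterior libraries above the other 18, 16 of them called higher, against 28 to 127 at the other locations. These counts have no test of their own. They share the dorsal anterior libraries with the comparison above, and 68 of the 160 genes had no symbol.

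Examples with a symbol, chosen after their values were seen, follow. Several encode mitochondrial proteins, but the share of such genes among all genes lowest there, or among all tested genes, was not counted. Other called genes lowest there include GPR37, P2RY1, RHOU, TAOK1, NUP98 and FOXP2. NDUFAB1, the mitochondrial acyl carrier protein, stood at 299, 309 and 656 in dorsal anterior libraries and 2170, 1327 and 2666 in saddle libraries (-2.33, SE 0.29, adjusted p = 0.000402), and averaged 2461 ± 216 in dorsal posterior skin (SD, n = 3). MTMR1, a phosphoinositide phosphatase, had 161, 216 and 277 against 858, 724 and 1274 (-2.11, SE 0.21, adjusted p = 6e-05), with 1218 ± 77.6 in dorsal posterior skin. RNPEP, an aminopeptidase, had 693, 830 and 1180 against 2873, 2097 and 3400 (-1.64, SE 0.18, adjusted p = 0.000182), with 2910 ± 240 in dorsal posterior skin. In each of the 3 genes the anterior back lay below every library of every other location, which is how they were chosen. ME3, the mitochondrial malic enzyme, gave -2.25 (SE 0.29), the mitochondrial protease gene PARL -1.90 (SE 0.28), DCAF10, a substrate receptor of a ubiquitin ligase, -2.08 (SE 0.31), the matrix metalloproteinase gene MMP15 -1.45 (SE 0.19), and ADCK2 -1.35 (SE 0.18). NDUFAB1, PARL, MMP15 and CARS2, a mitochondrial cysteinyl-tRNA synthetase gene (-1.16, SE 0.19), were not called without number 8 (-2.44, -2.09, -1.59 and -1.27), and ADCK2 and DCAF10 without number 3 or 8 (-1.38 to -1.37 and -2.24 to -1.90). The calls of ABCB10 (-1.14) and DNAJA3 (-0.92), a transporter and a chaperone gene of the mitochondrion, were lost in 9 and 12 of 20 alternatives.

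Dorsal anterior library 3 was the lowest of the 3 anterior libraries at 115 of the 191 genes called lower, library 8 at 45 and library 11 at 31. The median log2 difference of those genes was -1.94 within number 3, -1.49 within number 8 and -1.24 within number 11. All genes together had medians of 0.01, 0.00 and 0.01 within the same numbers. The genomic span of the genes called lower had a median of 13369 bases and that of the genes called higher 22351 bases, against 9170 bases over the genes tested. Whether library 3 or gene length has a part in these counts was not tested.

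**Figure D4:**
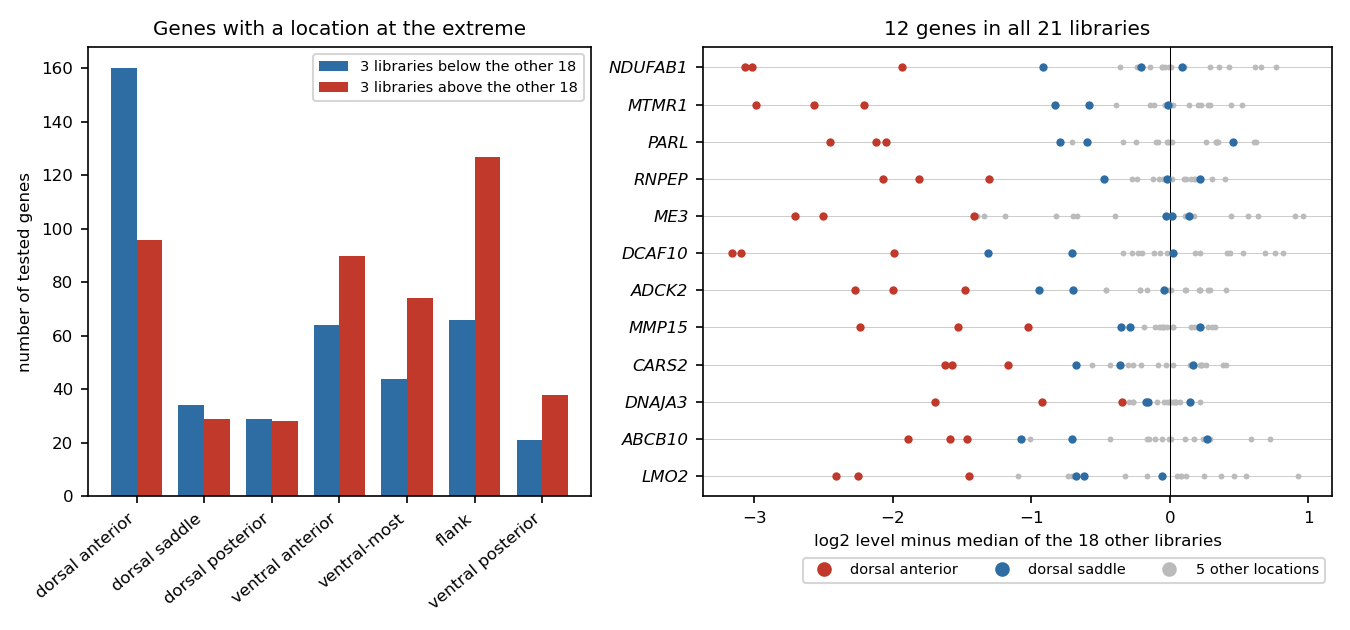
Left, the number of tested genes for which the 3 libraries of a location lie below (blue) or above (red) the other 18 libraries; dorsal anterior skin has 160 below, against 21 to 66 elsewhere. Right, 12 genes chosen after their values were seen, as the log2 level of each library minus the median of the 18 libraries of other locations (red, dorsal anterior; blue, dorsal saddle; grey, 5 other locations).

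A few more of the genes called higher were chosen after their values were seen. LLGL2, a polarity protein of epithelial cells, stood at 2827, 2817 and 3088 against 1638, 1839 and 1950 (0.69, SE 0.12, adjusted p = 0.00618), and PLAU, the urokinase protease, at 2061, 2764 and 2071 against 907, 998 and 1413 (1.07, SE 0.19, adjusted p = 0.00668). PRXL2A, a redox protein gene, gave 1.31 (SE 0.26, adjusted p = 0.0119), and the tropomyosin gene TPM1 0.62 (SE 0.14, adjusted p = 0.0242). Of 12 tested epidermis and periderm genes 0 were called by limma, edgeR or DESeq2. An unadjusted p below 0.05 was reached by 2 (1489 of 14005 over all genes). Of the differences 11 of 12 were positive (7352 of 14005 over all genes), with a median of 0.34. TP63, the master regulator of stratified epithelium, stood at 3511, 4214 and 4233 against 2159, 2677 and 2929 (0.63, SE 0.19, adjusted p = 0.134). The summed epidermis markers were higher in each anterior library than in any saddle library, but narrowly, at 26956 or more against 26627 or less. DSP, the largest part of the sum, overlapped, at 16572, 23859 and 19059 against 18366, 18709 and 15364 (0.17, adjusted p = 0.876 by limma). The part of these markers in the calls of LLGL2 and PLAU was not tested. LLGL2 was not called without number 3 or 8 or dorsal saddle 3 (0.60 to 0.73), PLAU without the block, number 3 or 8, or in the 6 libraries alone (0.87 to 1.07), PRXL2A in 5 and TPM1 in 9 of 20 alternatives.

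Of 21 tested melanocyte and melanin genes 0 were called by limma, edgeR or DESeq2. An unadjusted p below 0.05 was reached by 2, against 1489 of 14005 over all genes, and the median log2 difference was -0.03. TYR, the rate-limiting enzyme of melanin synthesis, stood at 1483, 1739 and 1625 in dorsal anterior libraries and 1503, 1639 and 2676 in saddle libraries (-0.22, SE 1.44, adjusted p = 0.99). The SE is estimated over the libraries of all 7 locations. MITF, the master regulator of melanocytes, had 378, 372 and 605 against 415, 407 and 537 (-0.03, SE 0.22, adjusted p = 0.992), and KIT, the receptor that melanoblasts need, 989, 2553 and 2179 against 1028, 1674 and 1594 (0.33, SE 0.45, adjusted p = 0.935). TYRP1 (-0.50, adjusted p = 0.966), SLC45A2 (0.20, adjusted p = 0.988), SLC24A5 (0.18, adjusted p = 0.769) and EDNRB (-1.07, adjusted p = 0.36) were not called either. The endothelin receptor gene EDNRB was lower in each anterior library, at 134, 283 and 440 against 523, 648 and 460.

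The secreted regulators of melanocytes were less level but not called by limma in the fit of all 21 libraries. ASIP, which encodes agouti, the antagonist that turns melanocytes from dark to light pigment, stood at 144, 563 and 138 in anterior libraries and 25.5, 26.5 and 40 in saddle libraries (2.86, SE 0.75, adjusted p = 0.0694). Each anterior library was above each saddle library, yet the value missed the threshold. KITLG, the ligand of KIT, had 563, 893 and 924 against 345, 533 and 578 (0.71, SE 0.20, adjusted p = 0.0933), higher within every number but overlapping. Of 15 tested genes of the list limma called 0, edgeR 0 and DESeq2 2, ASIP (adjusted p = 0.00755) and KITLG (0.0184). KITLG was also called with the 9 dorsal libraries alone (adjusted p = 0.03) and ASIP with the 6 compared libraries alone (0.0472). Of the 15, 3 had an unadjusted p below 0.05 and the median was 0.35. Over all 14005 genes 1489 had such a p, and DESeq2 called 556.

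Signalling pathways other than those named above gave few calls by limma, while DESeq2 called more of the WNT genes and of the BMP and TGF-beta genes. WNT5A was the only one of 30 WNT genes called by limma (3.33%, against 1.83% over all genes), and DESeq2 called 6. An unadjusted p below 0.05 was reached by 11 of the 30, and 21 of 30 differences were positive, with a median of 0.31. Over all 14005 genes DESeq2 called 556, 1489 had an unadjusted p below 0.05 and 7352 differences were positive. Uncalled ligand genes with positive differences included WNT16 (2.70, adjusted p = 0.0621), WNT2 (1.75, adjusted p = 0.0644), WNT2B (1.64, adjusted p = 0.0784) and WNT6 (0.85, adjusted p = 0.206). These examples show 1 direction only, and the 9 WNT genes with negative differences are not named here. The anterior values all lay above the saddle values at 8 of the 30 WNT genes and all below them at 3. Over all 14005 genes they all lay above at 613 (4.38%) and all below at 828 (5.91%). Limma called 0 of 26 BMP and TGF-beta genes, edgeR 1 (BMP5) and DESeq2 4, and 8 had an unadjusted p below 0.05. The ligand genes differed in sign, with BMP5 at -1.83 (adjusted p = 0.0516) and BMP4 at 1.48 (adjusted p = 0.353). CRABP1 was 1 called gene of 10 in the retinoic acid list (10.0%, against 1.83% over all genes). There CYP26A1, which degrades retinoic acid, gave -1.17 (adjusted p = 0.393) and ALDH1A2, which makes it, 1.10 (adjusted p = 0.745). No gene was called by limma, edgeR or DESeq2 among 21 FGF, 7 Hedgehog and 8 Notch genes, of which 2, 2 and 0 had an unadjusted p below 0.05. Among 14 hypoxia and glycolysis genes 1 was called (7.14%, against 1.83% over all genes). It was the collagen hydroxylase gene P4HA2, which was higher (1.04, adjusted p = 0.0165). Its call was lost without the block, any 1 number, dorsal anterior 3 or 8 or dorsal saddle 3 or 8 (0.97 to 1.12). Among 21 cell cycle genes 0 were called by any of the 3 tools, with 1 unadjusted and a median of 0.02.

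Markers of other tissues differed in sign. All 20 tested skeletal muscle genes had positive differences, with a median of 1.85, but limma called 0, edgeR 0 and DESeq2 1. An unadjusted p below 0.05 was reached by 2 of the 20, against 1489 of 14005 over all genes. The anterior libraries differed widely among themselves: ACTC1, an actin of early muscle, stood at 4506, 2481 and 70.3 against 25.5, 785 and 30.9 (3.41, SE 1.66, adjusted p = 0.498), and MYOD1, the muscle determination factor, at 400, 72.3 and 0 against 0, 53.9 and 3.63. Dorsal anterior libraries 3 and 8 had more of these muscle transcripts than library 11, and the summed defining markers ran from 76.2 to 5205 on the anterior back and from 36.3 to 865 in the saddle. Of the 60 called genes followed, 26 lost their call without dorsal anterior 3 and 26 without dorsal anterior 8, and 28 kept it in both fits. Without dorsal anterior 11 the call was lost by 11, without dorsal saddle 3 by 25, without dorsal saddle 8 by 19 and without dorsal saddle 11 by 16. The part of muscle in the differences was not tested.

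Blood vessel genes were mostly lower on the anterior back. Of 10 tested endothelial genes 9 had negative differences, against 6653 of 14005 over all genes, and the median was -1.53. An unadjusted p below 0.05 was reached by 8 of the 10, against 1489 of 14005. Limma and edgeR called 1, LMO2, and DESeq2 6. The share called by limma was 10.0%, against 1.83% over all genes. LMO2 stood at 123, 137 and 240 against 426, 411 and 632 (-1.59, SE 0.30, adjusted p = 0.00885), and was not called without number 3 or 8 or dorsal anterior 3 (-1.59 to -1.39). The receptor gene KDR had 200, 115 and 414 against 716, 662 and 538 (-1.58, SE 0.47, adjusted p = 0.12), and ERG, a vascular transcription factor, was the exception at 0.54 (adjusted p = 0.075). The endothelial marker CDH5 had 215, 227 and 355 against 1139, 1269 and 341 (-1.61, adjusted p = 0.347). TIE1, another, had 134, 196 and 548 against 697, 945 and 489 (-1.49, adjusted p = 0.358). Both were lower on the anterior back within numbers 3 and 8 and higher within number 11. The summed defining markers of endothelium ran from 934 to 1810 in anterior and 1631 to 3122 in saddle libraries, so that the ranges overlapped. Macrophage and leukocyte genes had 7 of 7 negative differences, with 0 called by limma and edgeR, 1 by DESeq2, 2 unadjusted and a median of -0.76. Over the 19 lists in which limma called 0, edgeR called at most 1 member of a list, DESeq2 at most 4, and at most 8 had an unadjusted p below 0.05.

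**Figure D5:**
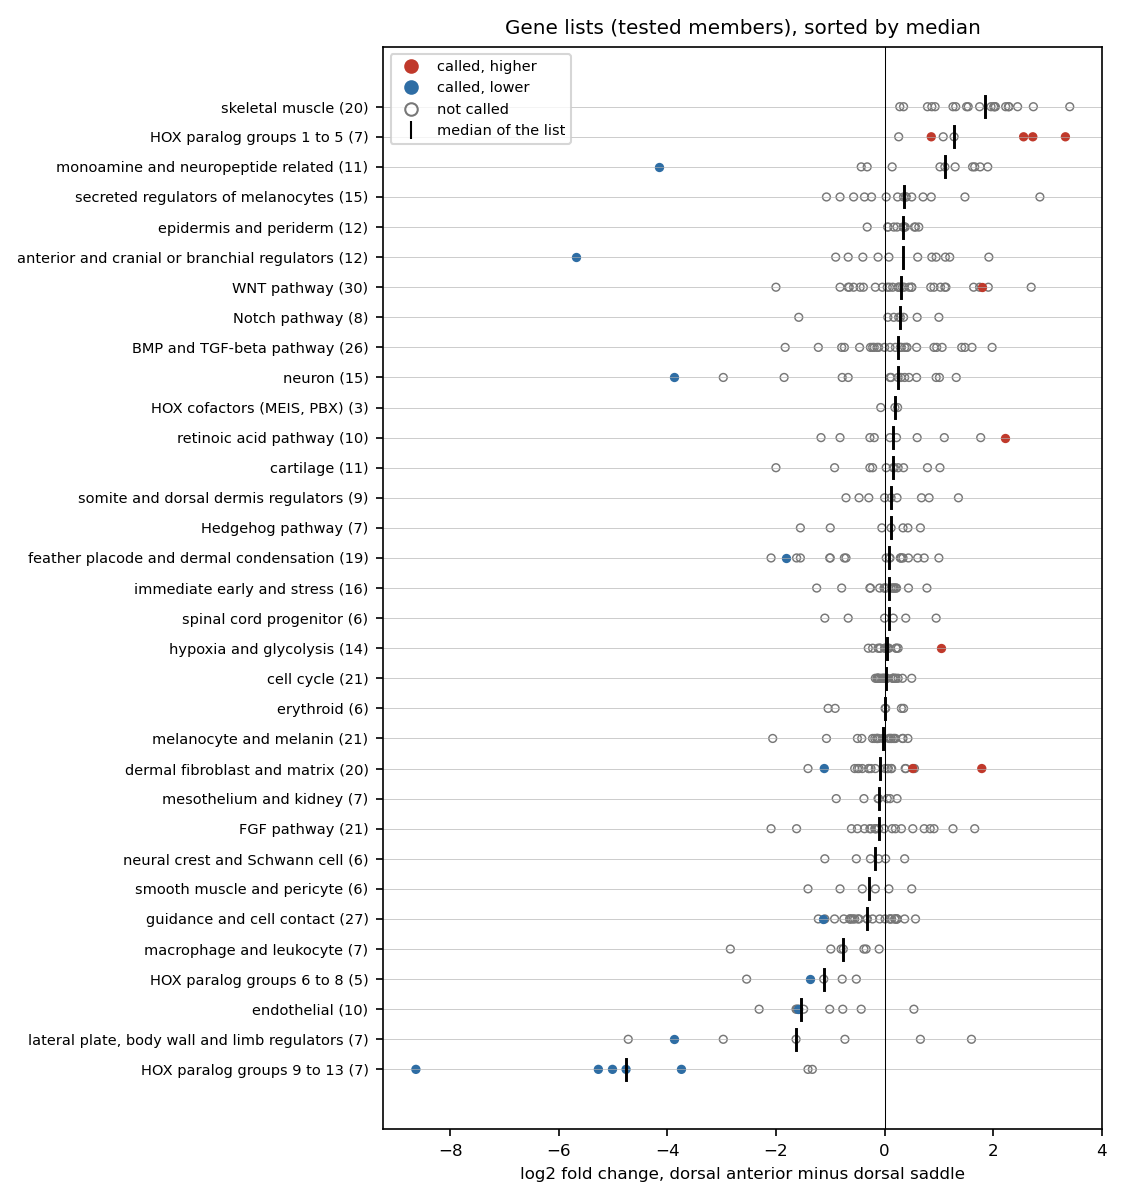
Each row is a gene list with its number of tested members in brackets, each circle a member at its log2 fold change, dorsal anterior minus dorsal saddle, filled where called (red, higher; blue, lower), and each bar the list's median. The HOX groups 9 to 13 hold 5 filled blue circles and the groups 1 to 5 hold 4 red ones, whereas all 20 skeletal muscle circles are open.

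The step from anterior back to saddle was set against the step from anterior belly to ventral-most skin, a pair of locations on the other side, which uses other libraries. The labels do not say whether both pairs lie at matching levels of the body axis. Dorsal and ventral anterior skin had unlike mean levels of some genes, such as HOXA7 (249 against 25.1), but not of HOXC9 (1.47 against 2.07). The difference between both steps was called at 237 genes (1.69%), 78 positive and 159 negative. Several HOX genes were among them. HOXA7 gave -1.38 on the back and -4.94 on the belly, a difference of 3.56 (SE 0.39, adjusted p = 0.000431), and HOXB8 -2.54 and -6.42, a difference of 3.88 (SE 0.94, adjusted p = 0.0468). HOXB8 was near 0 in both anterior skins, at 5.25, 0.882 and 1.69 on the back and 0, 1.84 and 0 on the belly. Its steps therefore depend on the pseudocount. It averaged 18.2 in the saddle and 124 in ventral-most skin. Neither difference was followed through the alternatives. HOXA3 differed the other way, with 0.86 on the back and 2.46 on the belly (difference -1.60, SE 0.24, adjusted p = 0.00382). For HOXC9 the steps were -8.63 and -8.79 (difference 0.16, SE 0.95, adjusted p = 0.979), and for HOXD4 they were 2.56 and 0.17 (difference 2.39, SE 0.51, adjusted p = 0.0256). Among the genes chosen above for their lowest level at the anterior back, MTMR1, RNPEP and NDUFAB1 had belly steps near 0. ME3 had one of 1.13 (adjusted p = 0.0324) and DCAF10 one of 0.52. The difference of steps holds the same dorsal anterior values by which these genes were chosen. Its adjusted p is thus no independent support for them. MTMR1 gave -2.11 on the back and 0.10 on the belly (difference -2.21, SE 0.29, adjusted p = 0.0014), RNPEP -1.64 and 0.07 (-1.71, SE 0.26, adjusted p = 0.00382) and NDUFAB1 -2.33 and 0.20 (-2.53, SE 0.41, adjusted p = 0.00568). OPN3 had opposite signs, 2.95 on the back and -1.60 on the belly (4.55, SE 0.46, adjusted p = 0.000209), as had SYNDIG1, 3.98 and -1.06 (5.04, SE 0.64, adjusted p = 0.00113). The belly step was called on its own by limma for OPN3 (adjusted p = 0.00869) but not for SYNDIG1 (adjusted p = 0.236). Of these counts, 237 became 76 without the block, and 108, 6 and 145 without numbers 3, 8 and 11; among fits lacking a single library it was 151 without dorsal anterior 3, 150 without dorsal anterior 8 and 132 without dorsal saddle 3.

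The step from anterior back to saddle was also set against the next step, from saddle to posterior back; the saddle libraries enter both. The steps differed at 57 genes (0.407%), 18 positive and 39 negative. HOXA9, HOXB9 and HOXC9 were lower on the anterior back than in the saddle in the first step, and the second step, of opposite sign, was not called (adjusted p = 0.725, 0.377 and 0.616): HOXA9 gave -5.27 and then 0.67 (difference -5.93, SE 1.08, adjusted p = 0.0293), HOXB9 -5.01 and 1.55 (-6.57, SE 1.2, adjusted p = 0.0289) and HOXC9 -8.63 and 0.95 (-9.58, SE 1.16, adjusted p = 0.00142). HOXA11 had the opposite order of sizes, -3.74 and then -6.59, but the difference of 2.84 was not called (SE 1.28, adjusted p = 0.541). WNT5A gave 1.80 in the first step and -0.72 in the second, which was not called on its own (adjusted p = 0.173), and the steps differed (2.52, SE 0.38, adjusted p = 0.0102). ISM1 had a peak in the saddle, with -2.86 and then 2.02 (-4.88, SE 0.55, adjusted p = 0.000888). The count was 20 without the block, 4 and 15 without numbers 3 and 11, and 27, 31, 94, 9, 9 and 10 without dorsal anterior 3, 8 and 11 and dorsal saddle 3, 8 and 11. Without number 8 limma made 0 calls, with 566 genes at an unadjusted p below 0.05.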

How the data were processed

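Per the labels' protocols, skin was dissected on ice and kept in RNAlater, RNA was purified on a micro column, and 10 ng of total RNA were amplified with SMART-Seq v4 and made into Nextera XT libraries, without molecular identifiers. The authors' deposited values are a signal scaled for depth: the reads counted on a gene over a factor of its library. The submitters' processing notes name STAR 2.4.0, SAMtools, Picard, FastQC and DESeq2; no source used here names the genome build, annotation or counter. All values in the 21 libraries came out as whole reads after rescaling (100.0% within 0.01 of a whole number), so that depth was known.

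Genes with at least 10 in at least 3 libraries were tested, 14005 of 18202. Limma 3.58.1 in R 4.3.3 was fitted to log2 of the value plus 1 over all 21 libraries, with location and the number as a block, a mean-variance trend and robust moderation. P-values were adjusted by Benjamini-Hochberg over all genes tested, and fold changes are on the log2(value + 1) scale, which understates the change of low genes. EdgeR 4.0.16 and DESeq2 1.42.0, on the recovered reads, another pseudocount or filter, other sets of libraries, TMM scaling, no block and libraries left out were alternatives. Same-number libraries of different locations had correlated deviations from their location means, 0.27 to 0.53 over 63 pairs. The 126 pairs of unlike numbers gave -0.32 to -0.05. Deviations sum to 0 within a location, so negative values there follow from the positive ones and add no separate evidence. The pairing comes from the data, since the labels do not say what a number marks. The labels do not say that libraries came from separate embryos, so p-values measure the spread between these libraries, which may be technical. Intervals and floors cover counting error only.

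Symbols were found for 8546 genes, 8122 through the RefSeq gene table of assembly bTaeGut7.mat by Entrez number, used for names only, and 424 from the deposited name, as for HOXB5, HOXD4, HOXD13, KERA, ZIC1 and GHRHR. On simulated reads for the comparison of dorsal anterior with dorsal saddle skin (13931 genes), limma recovered 55% of 2-fold and 93% of 4-fold changes. For the difference between back and belly steps it recovered 33% and 76%, and for that between both steps along the back 18% and 55%. The changes were set in dorsal anterior libraries only and in genes of a higher mean level than the filter asks. Genes of low level are therefore not covered, and false calls are not given here.

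The members and gene lists were chosen with earlier results of these data known. Genes named by rule are the 14 highest and 14 lowest called fold changes with a symbol, the same sign in all 3 numbers and a mean log2 level of at least 5 at the higher location, up to 4 called genes of each list, all measured HOX genes, 9 pigment genes, and the 5 highest and 5 lowest called for each difference of steps. Some genes that met these rules are not reported here. Others are said to be chosen after their values were seen, or illustrate a list.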

Additional observations from a re-analysis of the deposited data

Results flagged for a closer look

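The difference between 2 steps was tested for each gene in the limma fit, and the called genes with the highest and lowest differences are given here. Values are log2 fold changes; the back step is dorsal anterior minus dorsal saddle and the belly step ventral anterior minus ventral-most.

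Between back and belly, the back step exceeded the belly step for HOXB7 by 8.07 (-0.52 on the back, -8.59 on the belly), for ZIC1 by 7.6 (-0.00 and -7.61), for the potassium channel gene KCNT1 by 7.39 (3.21 and -4.18), for ASIP by 5.97 (2.86 and -3.11) and for HOXB5 by 5.12 (0.26 and -4.86). The back step lay below the belly step for PITX1, with a difference of -10.23 (-4.72 and 5.51), for the homeobox gene TLX1 with -9.39 (0.00 and 9.39), for ISL1 with -8.8 (-3.87 and 4.92), for LRRTM1 with -7.94 (-5.26 and 2.68) and for RERGL with -7.61 (-2.90 and 4.70). TLX1 was at 0 in every dorsal anterior and dorsal saddle library. RERGL had 2 dorsal anterior against 33 dorsal saddle reads, a saddle to anterior ratio of 18.8 with a 95% counting interval of 4.8 to 161. All 10 calls but that of HOXB7 were lost without number 8. Those of KCNT1, PITX1 and ISL1 were also lost without number 3, that of ASIP without number 11, that of HOXB5 without number 3 or the block, and that of TLX1 with edgeR and DESeq2. LRRTM1 lost its call in 4 alternatives and RERGL in 11.

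Along the back, the first step exceeded the second, dorsal saddle minus dorsal posterior, for RFX4 by 9.45 (4.58 and then -4.87), for SYNDIG1 by 4.72 (3.98 and -0.74), for PDGFD by 3.4 (2.14 and -1.27), for KERA by 2.86 (1.79 and -1.07) and for OPN3 by 2.78 (2.95 and 0.16). It lay below the second for HOXC9, with a difference of -9.58 (-8.63 and 0.95), for SLC6A2 with -8.42 (-4.16 and 4.26), for HOXB9 with -6.57 (-5.01 and 1.55) and for TBXT with -6.3 (-3.00 and 3.30). HOXC9 lost its call in 2 alternatives, SYNDIG1 and TBXT in 5, SLC6A2 in 6, HOXB9 in 7, KERA in 10, RFX4 in 11, OPN3 in 12 and PDGFD in 13.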

How the results depend on the processing

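The numbers of called genes moved with the setting, and the cause was not tested. The comparison of dorsal anterior with dorsal saddle skin gave 256 calls, against 109 without the replicate block, all of them among the 256, and 556 with DESeq2, which shared 255; fits that left out libraries gave 25 to 294. The remaining settings gave 194 to 358, edgeR 226 among them. With the 9 dorsal libraries alone 135 of 358 calls were higher in dorsal anterior skin, and with the 6 compared libraries alone 96 of 263, against 65 of 256. For the difference between back and belly steps, 237 calls became 76 without the block and 558 with DESeq2, with 6 to 273 when libraries were left out. For both steps along the back, 57 became 20 without the block, 91 with the 9 dorsal libraries alone, 29 without trend or robust moderation and 245 with DESeq2, with 0 to 94 when libraries were left out. Among uncalled genes the sign changed in fits lacking libraries, with log2 ranges of -0.13 to 0.73 for HOXB5, -0.02 to 0.55 for SLC45A2, -0.13 to 0.07 for MITF, -1.09 to 0.56 for TYR and -0.95 to 0.19 for TYRP1. HOXD11 ranged from -2.0 to 0.00 and HOXD13 from -2.16 to 0.00 in such fits, both reaching 0.00 without number 8 and never turning positive. Genes within a few reads of 0 are limited by depth, and their fitted fold changes depend on the pseudocount. The labels do not give the number of embryos per library, and 98 called genes have no symbol.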

Other observations

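A gene without a name, GSZG0017375, was singled out after its values had been seen. It stood at 0, 2.64 and 0 in dorsal anterior libraries and at 942, 340 and 173 in dorsal saddle libraries (log2 fold change -7.96, adjusted p = 6e-05 by limma), and it kept its call in all 20 alternatives. With 3 dorsal anterior against 1388 dorsal saddle reads, its saddle to anterior ratio was 526, with a 95% counting interval of 180 to 2560. The same gene stood at 1011, 934 and 635 in dorsal posterior and at 1207, 1395 and 573 in ventral posterior libraries, and at 0 to 7.14 in the 9 libraries of the other 3 ventral locations. Its deposited position is on a sequence assigned to no chromosome.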
